A study of Mus musculus with 24 samples.

Results

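The corticotropin-releasing hormone (CRH) system was described here by 4 genes of the 37991 in the count table: the peptide ligand Crh, the binding protein Crhbp and the receptors Crhr1 and Crhr2. They were found by symbol, each had a single row, and all 4 passed the filter on low counts in both experiments. The samples were 24 RNA-seq libraries in 8 groups from the nucleus accumbens of mice, the ventral striatal region tied to reward and motivation. Each library held the pooled mRNA of 4 mice, so n counts libraries, and every group had 3. The protocol text also names dorsal striatum for the tissue punches.

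The wild-type experiment set stressed against control C57BL/6J mice of each sex. Mice of the floxed experiment had all been stressed and bore the Dnmt3a2lox/2lox alleles on the C57BL/6J background, in which loxP sites flank part of Dnmt3a, a DNA methyltransferase. These females and males received AAV-CRE or AAV-GFP, adeno-associated viruses for Cre recombinase, which removes the flanked part, or for a fluorescent control protein. The stress is called subchronic variable stress in the title of the series. The sources used here do not give its length, the ages of the mice, the time of tissue collection or the promoter that drove Cre. No unstressed floxed mice were analysed here, so stress and floxed genotype are shared by every Cre and GFP library.

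CRH is best known as the hypothalamic peptide that starts the release of pituitary and adrenal stress hormones, but it is also made by neurons outside the hypothalamus. It acts through CRHR1 and CRHR2, class B G protein-coupled receptors that raise cyclic AMP through Gs, while CRHBP is a secreted protein that binds the peptide. In the nucleus accumbens, CRH is known to affect dopamine release and motivated behaviour, and the urocortins are related peptides that bind the same receptors, CRHR2 above all.

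The promoters of the members are shown because the floxed experiment removes part of Dnmt3a, whose protein methylates cytosine, mostly in the pair CG. Methylation itself was not measured in the data used here. The 250 bases before the annotated start of each gene were taken from RefSeq on GRCm38.p6, a later build than the one used for counting. An entry was found for 3 of the 4 members, Crhbp at chr13:95444832-95445081 on the minus strand, Crhr1 at chr11:104132531-104132780 on the plus strand and Crhr2 at chr6:55133017-55133266 on the minus strand. They are written 5′ to 3′ with every CG pair in capitals.

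Crhbp: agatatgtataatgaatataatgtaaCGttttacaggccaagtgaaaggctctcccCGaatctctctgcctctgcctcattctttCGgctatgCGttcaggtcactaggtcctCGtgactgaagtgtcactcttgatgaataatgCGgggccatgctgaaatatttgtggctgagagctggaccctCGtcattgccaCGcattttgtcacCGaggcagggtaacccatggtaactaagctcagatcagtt
Crhr1: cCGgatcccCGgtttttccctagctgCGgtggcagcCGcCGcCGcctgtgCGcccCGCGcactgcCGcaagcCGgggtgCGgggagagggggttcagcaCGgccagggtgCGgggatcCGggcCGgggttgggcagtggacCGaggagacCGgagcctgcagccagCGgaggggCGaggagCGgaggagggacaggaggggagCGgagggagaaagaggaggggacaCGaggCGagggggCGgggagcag
Crhr2: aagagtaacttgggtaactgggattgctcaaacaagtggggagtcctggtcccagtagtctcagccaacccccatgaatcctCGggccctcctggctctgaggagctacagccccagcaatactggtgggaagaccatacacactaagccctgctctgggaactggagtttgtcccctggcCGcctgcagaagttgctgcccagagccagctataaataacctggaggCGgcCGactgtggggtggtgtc

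The Crhr1 window held 25 CG pairs and was 74.8% G and C, and 10.7% of the 32841 windows in the table held as many pairs or more. The Crhbp window held 9 pairs at 47.2% G and C, and the Crhr2 window held 4 at 57.6%, against a median of 6 pairs over all windows. TGACG, the core of the cyclic AMP response element that CREB binds, occurred once in the Crhbp window when both strands were searched, and not in the other two. The same letters occurred in 17.8% of all windows, and the full element TGACGTCA, held by 1.55% of them, was in none of the 3.

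Floxed libraries held 28132563 to 59829070 counts and wild-type libraries 7116123 to 12145551, and each experiment was fitted apart. Levels are given in CPM, counts per 1000000 of library size after TMM scaling, and a floor of 3 counts corresponds to 0.0501 to 0.107 CPM in floxed and 0.247 to 0.422 CPM in wild-type libraries. All 4 members lay above this floor in all 24 libraries, with 16 counts as the lowest value, for Crhr2 in stressed male library 2. Dnmt3a itself stood at 148 ± 7.89 CPM in Cre females against 162 ± 7.19 in GFP females, and at 140 ± 2.99 CPM in Cre males against 172 ± 8.63 in GFP males (SD, n = 3 each). The log2 differences were -0.12 in females (adjusted p = 0.829) and -0.30 in males (adjusted p = 0.0149, edgeR quasi-likelihood test), and a count over the whole gene also holds transcripts that lack the removed part.

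Per kilobase of exon, which allows levels to be compared between genes, Crhr2 was the lowest of the 4 members in 23 of 24 libraries. The exception was Cre female library 2, where Crh was lower. In stressed females Crh averaged 3.79 CPM per kb, above Crhbp at 2.82 and Crhr1 at 2.48, and in stressed males it averaged 4.31, above Crhr1 at 3.20 and Crhbp at 2.78. In control females the means were 2.60 for Crh, 3.34 for Crhbp and 2.79 for Crhr1, and in control males 2.17, 2.68 and 3.07 CPM per kb. Crh thus headed the order of means in both stressed wild-type groups and was below Crhbp and Crhr1 in both control groups. It exceeded Crhr1 in 3 of 3 stressed female libraries against 2 of 3 control female libraries, and in 2 of 3 stressed male libraries against 0 of 3 control male libraries. In the floxed experiment Crhr1 led in Cre females at 3.38, in GFP females at 3.51 and in GFP males at 2.93 CPM per kb, while in Cre males Crhbp led at 5.74, with Crhr1 at 3.50. Crh led in none of these groups, although all of these mice had been stressed too, and its libraries ran from 0.864 to 3.70 CPM per kb. It exceeded Crhr1 in 1 of 3 Cre male libraries and in 0 of 3 libraries of each other floxed group.

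**Figure D1:**
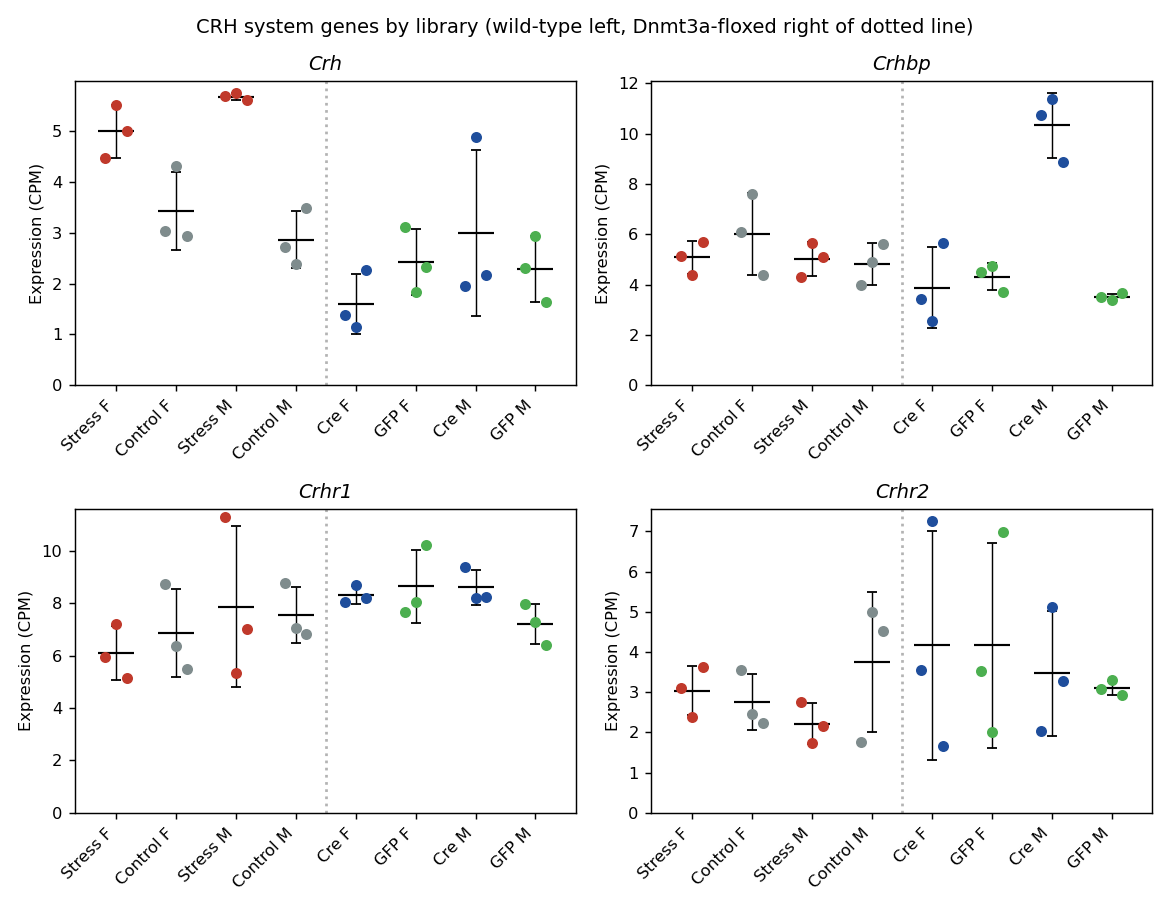
Level of Crh, Crhbp, Crhr1 and Crhr2 in each library, in CPM on a linear axis that starts at 0, with groups along the horizontal axis. Each point is a library of 4 pooled mice and each bar the mean of 3. Crh separates stress from control in both sexes of the wild-type experiment, and Crhbp stands at 8.88 CPM and above in Cre males alone.

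The ligand Crh was higher in every stressed library than in every control library of the same sex. Stressed females had 4.47, 5.52 and 5.01 CPM of Crh, against 3.04, 4.32 and 2.94 CPM in control females, from 33, 53 and 36 counts against 30, 42 and 29. Stressed males had 5.69, 5.75 and 5.62 CPM, against 2.71, 2.39 and 3.49 CPM in control males, from 58, 53 and 52 counts against 26, 22 and 41. The gap in females was narrow, 4.47 in the lowest stressed library beside 4.32 in the highest control library, whereas in males it lay between 5.62 and 3.49. Both stressed groups therefore ranked above both control groups, while the ranges of control females and control males overlapped. Stressed males lay above stressed females by a narrow gap, 5.62 CPM in the lowest male library beside 5.52 CPM in the highest female library. The share of all genes separated in this way between the sexes was not counted. In bulk tissue, a change in the number of Crh neurons and a change in Crh RNA per cell cannot be told apart.

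None of these differences passed the adjusted threshold. The log2 difference of Crh between stressed and control females was 0.54 (SE 0.22, unadjusted p = 0.0276, adjusted p = 1.00, edgeR quasi-likelihood test), and it ranked 127th by p among 15249 genes. In males it was 0.98 (SE 0.22, unadjusted p = 0.000608, adjusted p = 1.00 by the same test), or 1.97-fold, and ranked 9th. Averaged over the sexes it was 0.76 (SE 0.15, unadjusted p = 0.000275, adjusted p = 0.420 by the same test), the rank being 10th. The difference between the sexes in the stress effect, females minus males, was -0.43 (SE 0.31, unadjusted p = 0.186 by the same test), so the larger male value was not shown to differ from the female value. DESeq2 gave adjusted p = 0.113 for the average of the sexes, and leaving out any 1 library kept the averaged value between 0.70 and 0.86.

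Read against all genes, 1 of the 4 members did not overlap between stressed and control females, where 5.3% of genes did not overlap in either direction and 2.72% were higher under stress. The same member, Crh, did not overlap in males, where 7.91% of genes did not overlap and 3.67% were higher. Separation in the same direction in both sexes occurred for 0.571% of genes, and for 0.223% with stress higher, which is the class of Crh. By edgeR 0 of 4 members were called in females and 0 of 4 in males, where 0% and 0.00656% of all genes were called, and DESeq2 and limma-voom called none either. At an unadjusted p below 0.05, 1 of 4 members passed in females, against 1.68% of all genes, and 1 of 4 in males, against 2.81%. For the average over the sexes 0 of 4 were called beside 0.0131% of all genes, and 1 of 4 had an unadjusted p below 0.05 beside 3.21%. For the difference of the stress effect between the sexes the genome-wide shares were 0% called and 1.19% at an unadjusted p below 0.05, with 0 of 4 members in each.

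No summed marker list separated stress from control in both sexes, as Crh did. Interneuron markers, 13 genes of cells that in part make neuropeptides, summed to 487 to 561 CPM in stressed females against 431 to 706 CPM in control females, and to 437 to 623 CPM in stressed males against 467 to 584 CPM in control males. Of the 12 genes of spiny projection neurons, the main neurons of the tissue, 11 had negative differences in each sex, with medians of -0.15 in females and -0.16 in males beside -0.0058 and -0.0011 over all genes, and none was called by edgeR. Their sum ran from 5782 to 6609 CPM in stressed males against 6678 to 7252 CPM in control males, without overlap. In females it ran from 5479 to 7127 CPM under stress against 6277 to 8473 CPM in controls, and the part of this shift in the Crh result was not tested. Mural cell markers, 8 genes of blood vessel walls, summed to 144 to 158 CPM in stressed females against 164 to 187 CPM in control females, also without overlap, and their part was not tested. Choroid plexus genes, led by Ttr, were uneven, with summed levels of 82.0 to 200 CPM in stressed males against 46.6 to 2722 CPM in control males. Cortical excitatory markers summed to 31.7 to 72.1 CPM in stressed females against 69.5 to 175 CPM in control females. Of 8 tested there, 7 were lower, with a median log2 difference of -1.27. By edgeR 6 had an unadjusted p below 0.05, beside 1.68% of all genes, and none was called. In males they summed to 31.3 to 77.8 CPM under stress against 42.7 to 69.7 CPM in controls, with a median of -0.024. Fitted with a choroid plexus score, the log2 difference of Crh was 0.48 in females and 1.12 in males. With a cortical score it was 0.85 in females and 1.03 in males. Each score was the mean log2 CPM of a list, without genes negative in every library. Over the 12 wild-type libraries Crh correlated at -0.68 with the spiny neuron, 0.52 with the interneuron and 0.45 with the septal and hypothalamic score. For the cortical, mural and choroid plexus scores the values were -0.091, -0.062 and 0.060. Group differences enter these correlations, and no fit used a spiny neuron or interneuron score. Septal and hypothalamic markers, 10 genes, summed to 41.8 to 85.0 CPM in stressed females against 56.2 to 63.7 CPM in control females. In stressed males they summed to 60.0 to 70.5 CPM, against 53.0 to 66.3 CPM in control males. Otp and Sim1, 2 genes of this list that mark the hypothalamic neurons making CRH for the pituitary, had at most 1 and 5 counts in any wild-type library. The part of septal or hypothalamic RNA in the Crh result was not tested.

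In the floxed experiment Crh showed no such separation. Cre females had 1.39, 1.14 and 2.27 CPM of Crh, against 3.12, 1.83 and 2.33 CPM in GFP females, and the ranges overlapped. The log2 difference was -0.59 (SE 0.39, adjusted p = 0.882, edgeR quasi-likelihood test). Cre males had 1.95, 4.89 and 2.17 CPM, against 2.31, 2.93 and 1.63 CPM in GFP males, with a log2 difference of 0.42 (SE 0.38, adjusted p = 0.534 by the same test). The male value rests on Cre male library 2, without which it was -0.15. That library also had the lowest spiny neuron sum, 2922 CPM against 5391 and 5804 in the other Cre males, and a choroid plexus sum of 2129 CPM against 182 and 78.0. With the choroid plexus score in the fit the male log2 difference of Crh was -0.46, and with the cortical score -0.91, neither called by edgeR. The difference between the sexes in the Cre effect was -1.0 (SE 0.55, unadjusted p = 0.0956, adjusted p = 0.366 by the same test).

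The urocortins, the other ligands of these receptors, were near the limit of detection. Ucn had 3 counts over all 24 libraries and was at 0 in 21 of them, Ucn2 had 0 to 8 counts per library and 61 in all, and Ucn3 had 1 to 25 counts and 189 in all. Only Ucn3 passed the filter, and only in the floxed experiment. It had 8, 6 and 6 counts in Cre males, or 0.211, 0.0985 and 0.176 CPM, against 20, 11 and 25 counts in GFP males, or 0.680, 0.370 and 0.637 CPM. Ucn3, a ligand selective for CRHR2, was thus lower in all 3 Cre male libraries, with a log2 difference of -1.84 (SE 0.44, adjusted p = 0.0388, edgeR quasi-likelihood test). It was also called by limma-voom but not by DESeq2, and edgeR called 4.96% of all genes in this comparison. Cortical excitatory markers summed to 239 to 574 CPM in Cre males against 17.5 to 36.1 CPM in GFP males. Their part in the Ucn3 value was not tested. In females the log2 difference of Ucn3 was 0.53 (SE 0.44, adjusted p = 0.890, edgeR quasi-likelihood test).

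Crhbp, which binds the peptide outside the cell, was the only member called by edgeR in any of the 10 comparisons, and the call was in floxed males. It had 10.8, 11.4 and 8.88 CPM in Cre males, against 3.50, 3.40 and 3.64 CPM in GFP males, from 408, 692 and 303 counts against 103, 101 and 143. All 3 Cre male libraries lay above the other 9 floxed libraries, of which the highest was Cre female library 3 at 5.66 CPM. Crhbp averaged 10.3 ± 1.29 CPM in Cre males and 3.51 ± 0.124 CPM in GFP males (SD, n = 3 each), a 2.94-fold difference. The log2 difference was 1.56 (SE 0.23, adjusted p = 0.00779, edgeR quasi-likelihood test), and it was called again in each of 12 fits that left out a library, with log2 differences from 1.48 to 1.65 and adjusted p from 0.00231 to 0.0494.

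Cortical excitatory neuron markers were higher in the same 3 libraries. Their 10 genes summed to 571, 574 and 239 CPM in Cre males, against 17.5, 21.8 and 36.1 CPM in GFP males, and all 10 were called higher by edgeR with a median log2 difference of 5.37 beside 0.0046 over all genes. Slc17a7, which encodes the glutamate transporter VGLUT1 of synaptic vesicles, stood at 428, 408 and 168 CPM in Cre males, against 1.29, 2.76 and 15.3 CPM in GFP males. Cre male library 3 was the lowest of its group both in these markers and in Crhbp. In 7 of 8 groups the library with the highest cortical sum also had the highest Crhbp, GFP females being the exception. Among Cre females it had 68.1 CPM of markers and 5.66 CPM of Crhbp, and among control females 175 CPM of markers and 7.61 CPM of Crhbp. The cortical score was the mean log2 CPM of the list, without genes negative in every library. With this score as a covariate, the male log2 difference of Crhbp was 0.37 (SE 0.36, adjusted p = 1.00, edgeR quasi-likelihood test), so the call was lost. Other marker sums also separated the male groups: interneuron markers at 397 to 489 CPM in Cre males against 296 to 330 CPM in GFP males, choroid plexus markers at 78.0 to 2129 against 56.4 to 73.9 CPM, and septal and hypothalamic markers at 78.8 to 151 against 48.9 to 74.8 CPM. With the choroid plexus score in the fit the log2 difference was 1.44 (adjusted p = 0.121, edgeR quasi-likelihood test), which also lost the call, and the part of the other lists was not tested. The parts of Cre and of these mixtures in the Crhbp level cannot be told apart.

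**Figure D2:**
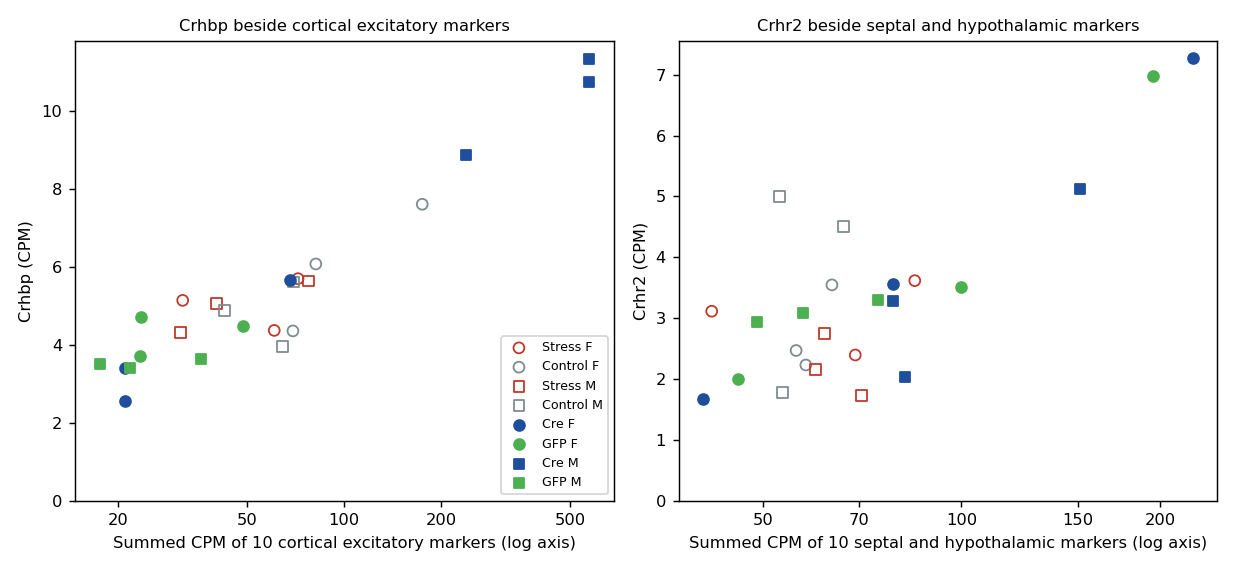
Left, level of Crhbp in CPM on a linear axis against the summed CPM of 10 cortical excitatory markers on a log axis; right, level of Crhr2 against the sum of 10 septal and hypothalamic markers. Each point is 1 of 24 libraries, colour and shape give the group, and the 3 Cre male libraries lie at the upper right of the left plot, at 239 CPM of markers and above.

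In females Crhbp did not pass. Cre females had 3.41, 2.57 and 5.66 CPM, against 4.49, 4.72 and 3.71 CPM in GFP females, with a log2 difference of -0.14 (SE 0.23, adjusted p = 0.945, edgeR quasi-likelihood test). The difference between the sexes in the Cre effect, females minus males, was -1.69 (SE 0.32, unadjusted p = 0.00024, adjusted p = 0.0756 by the same test). It missed the threshold there, and DESeq2 gave adjusted p = 0.000320. Averaged over the sexes the Cre effect on Crhbp was 0.71 (SE 0.16, adjusted p = 0.0585, edgeR quasi-likelihood test) and 0.70 by DESeq2 (adjusted p = 0.00318).

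Stress left no separation in Crhbp. Stressed females had 5.15, 4.37 and 5.70 CPM, against 6.08, 7.61 and 4.36 CPM in control females, and stressed males had 4.32, 5.64 and 5.08 CPM, against 3.96, 4.89 and 5.62 CPM in control males. The ranges overlapped in both sexes, with log2 differences of -0.25 in females (SE 0.24) and 0.05 in males (SE 0.23). Neither was called, at unadjusted p = 0.304 in females and 0.839 in males by edgeR's quasi-likelihood test. The cortical marker sums of females, given above, were lower under stress. With the cortical score in the fit the log2 difference of Crhbp was 0.10 in females and 0.09 in males, neither called by edgeR. The peptide and its binding protein thus did not separate together: Crh separated stress from control where Crhbp did not, and Crhbp separated Cre from GFP in males where Crh did not.

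Counted over the members, 1 of 4 was called in Cre against GFP males, where 4.96% of all genes were called and 3.68% were called higher. Separation without overlap was seen for 2 of 4 members in males, Crhbp and Crhr1, both higher, where 29.4% of all genes did not overlap and 14.7% were higher. At an unadjusted p below 0.05 it was 1 of 4 beside 24.8% of all genes. In females 0 of 4 members were called by edgeR, DESeq2 or limma-voom beside 0% of all genes by edgeR, 0 of 4 had an unadjusted p below 0.05 beside 5.96%, and 0 of 4 did not overlap beside 11.5%. For the average over the sexes edgeR called 0 of 4 members beside 1.42% of genes, with 1 of 4 at an unadjusted p below 0.05 beside 14.2%. DESeq2 called 1 member there, where it called 652 of all 17597 genes. For the difference of the Cre effect between the sexes edgeR called 0 of 4 beside 0.0114%, with 1 of 4 at an unadjusted p below 0.05 beside 17.5%. DESeq2 called 1 member in that comparison, where it called 606 of all 17597 genes.

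**Figure D3:**
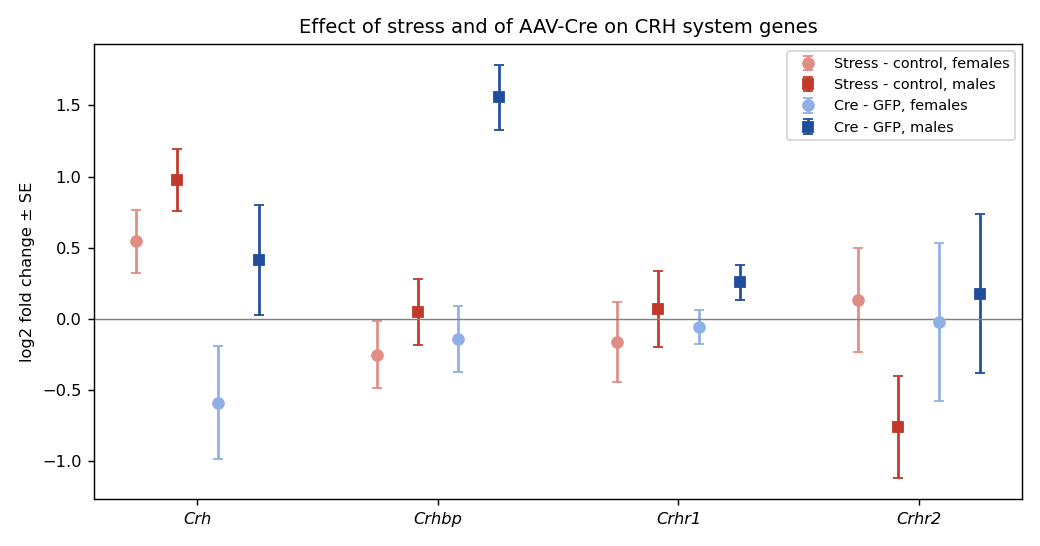
Log2 difference of each member in stress against control and in Cre against GFP, by sex, on a linear axis, with bars of 1 SE on each side of the edgeR estimate. Crhbp in Cre males, at 1.56, lies farthest from 0 and is the estimate called over all genes.

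Crhr1, the main CRH receptor of the forebrain, had the lowest coefficient of variation of the 4 members over the floxed libraries, 11.8%, and stood at 24.9% over the wild-type libraries, where Crhbp had 19.1%. Its highest level in the wild-type libraries, 11.3 CPM in stressed male library 1, was 2.19 times its lowest, and for Crh that ratio was 2.41. In the floxed libraries the ratio was 1.60 for Crhr1 and 4.29 for Crh. Stressed females had 5.96, 7.19 and 5.15 CPM of Crhr1, against 8.72, 6.38 and 5.48 CPM in control females. Stressed males had 11.3, 5.32 and 7.02 CPM, against 8.76, 7.06 and 6.81 CPM in control males. Stress and control ranges overlapped in both sexes, with log2 differences of -0.16 in females (SE 0.28) and 0.07 in males (SE 0.27), neither called by edgeR. An interval of 1.96 SE on each side ran from -0.71 to 0.38 in females and from -0.46 to 0.59 in males. It is a 95% interval only by a normal approximation, which is narrower than edgeR's quasi-likelihood test would give.

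In the floxed males Crhr1 had 9.38, 8.19 and 8.24 CPM with Cre, against 7.95, 7.27 and 6.40 CPM with GFP. The groups did not overlap, but the log2 difference of 0.26 (SE 0.12, unadjusted p = 0.0583, adjusted p = 0.219, edgeR quasi-likelihood test) did not pass. Cre females had 8.04, 8.69 and 8.21 CPM, against 7.67, 8.03 and 10.2 CPM in GFP females, and the ranges overlapped around a log2 difference of -0.06 (SE 0.12). By means the order in the floxed experiment was GFP females, Cre males, Cre females and GFP males. Of neighbours in this order only Cre females and GFP males did not overlap, by a narrow gap, 8.04 beside 7.95 CPM. GFP males did overlap GFP females, whose lowest library had 7.67 CPM. The share of all genes separated between such neighbours was not counted.

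Crhr2, which prefers the urocortins, was low and uneven. Stressed females had 3.11, 2.40 and 3.62 CPM, against 3.55, 2.47 and 2.23 CPM in control females, with a log2 difference of 0.13 (SE 0.37). Stressed males had 2.75, 1.74 and 2.16 CPM, against 1.77, 4.99 and 4.51 CPM in control males, with a log2 difference of -0.76 (SE 0.36, unadjusted p = 0.0539, adjusted p = 1.00, edgeR quasi-likelihood test). The male ranges overlapped because control library 1 lay with the stressed libraries. That library had 8.35 CPM of Ttr, the transthyretin gene that marks choroid plexus, beside 958 and 2285 CPM in the other control males, and stressed males had 115, 34.2 and 140 CPM. The control males with more Crhr2 were thus those with more Ttr, whereas the library with the highest choroid plexus sum had the lowest Crhr2 among stressed females (480 CPM with 2.40 CPM) and not the highest among control females (588 CPM with 2.47 CPM). With a choroid plexus score in the fit the log2 difference of Crhr2 was -0.50 (unadjusted p = 0.200, adjusted p = 1.00, edgeR quasi-likelihood test).

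In the floxed experiment the group means of Crhr2 ran from 3.11 to 4.17 CPM. The SDs within groups were 1.55 to 2.85 CPM, except in GFP males at 0.184 CPM. Cre females had 3.56, 7.27 and 1.67 CPM, against 3.52, 2.01 and 6.98 CPM in GFP females, with equal means of 4.17 CPM and SDs of 2.85 and 2.55 (n = 3 each). Cre males had 2.03, 5.12 and 3.28 CPM, against 3.09, 3.30 and 2.93 CPM in GFP males. The log2 differences were -0.02 in females (SE 0.55) and 0.18 in males (SE 0.56), neither called by edgeR. In all 4 floxed groups the library with the highest Crhr2 was the one with the most septal and hypothalamic marker RNA, against 2 of 4 wild-type groups. These 10 genes summed to 78.7, 224 and 40.6 CPM in Cre females, against 99.7, 45.9 and 195 CPM in GFP females. Zic1, a transcription factor gene that marks septal neurons, is in this list and made up a large part of the sums. It had 45.5, 128 and 21.2 CPM in Cre females, against 48.3, 23.8 and 111 CPM in GFP females. Its order is thus not separate from that of the sums. Among Cre males, library 2 was likewise highest in both, with 5.12 CPM of Crhr2 and 151 CPM of these markers. Otp and Sim1, hypothalamic genes of the list, had at most 1 count each in a floxed library. Of the 10 genes, 6 passed the filter on low counts in the floxed experiment. With the score of this list in the fit, a choice made after seeing the data, the log2 difference of Crhr2 was 0.24 in females and -0.57 in males, neither called by edgeR (adjusted p = 0.918 in females and 0.199 in males).

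Between the sexes no member was called in either experiment. In the wild-type experiment the log2 differences, females minus males, were 0.04 for Crh, 0.16 for Crhbp, -0.25 for Crhr1 and -0.01 for Crhr2, where 0.0393% of all genes were called by edgeR and 5.03% had an unadjusted p below 0.05, with 0 of 4 members in each. In the floxed experiment they were -0.41 for Crh, -0.55 for Crhbp, 0.11 for Crhr1 and 0.33 for Crhr2. Crhbp alone had an unadjusted p below 0.05 there (adjusted p = 0.456, edgeR quasi-likelihood test), and its average over Cre and GFP males holds the 3 high Cre male libraries. Of all genes 0.0682% were called in this comparison and 6.68% had an unadjusted p below 0.05, against 0 and 1 of 4 members, and DESeq2 called no member in either experiment.

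The 2 CRH receptors belong to the class B receptors for peptide hormones, of which 15 genes were compared per kilobase. Crhr1 was 4th by mean level in both experiments, at 3.33 CPM per kb in the floxed and 2.88 in the wild-type libraries, and Crhr2 was 8th at 0.729 and 0.575. Adcyap1r1, the receptor for the peptide PACAP, led at 46.7 and 40.0 CPM per kb, and Calcr, Vipr1 and Crhr1 followed in both experiments. Gcgr and Ghrhr, receptors for glucagon and growth hormone-releasing hormone, were lowest and at 0 in some libraries. Of the class, 13 genes were tested in Cre against GFP males and 1 was called by edgeR, the calcitonin receptor Calcr, where 4.96% of all genes were called. DESeq2 called 1 higher and 1 lower, where it called 1811 of all 17597 genes. Calcr had 11.6, 11.3 and 16.6 CPM in Cre males, against 28.9, 27.3 and 23.2 CPM in GFP males, with a log2 difference of -1.01 (SE 0.23, adjusted p = 0.0368, edgeR quasi-likelihood test). Under stress 0 of 12 were called in each sex by edgeR, DESeq2 or limma-voom, and Calcr alone had an unadjusted p below 0.05, with a log2 difference of 0.51 in females (SE 0.17, unadjusted p = 0.00883 by edgeR's quasi-likelihood test).

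**Figure D4:**
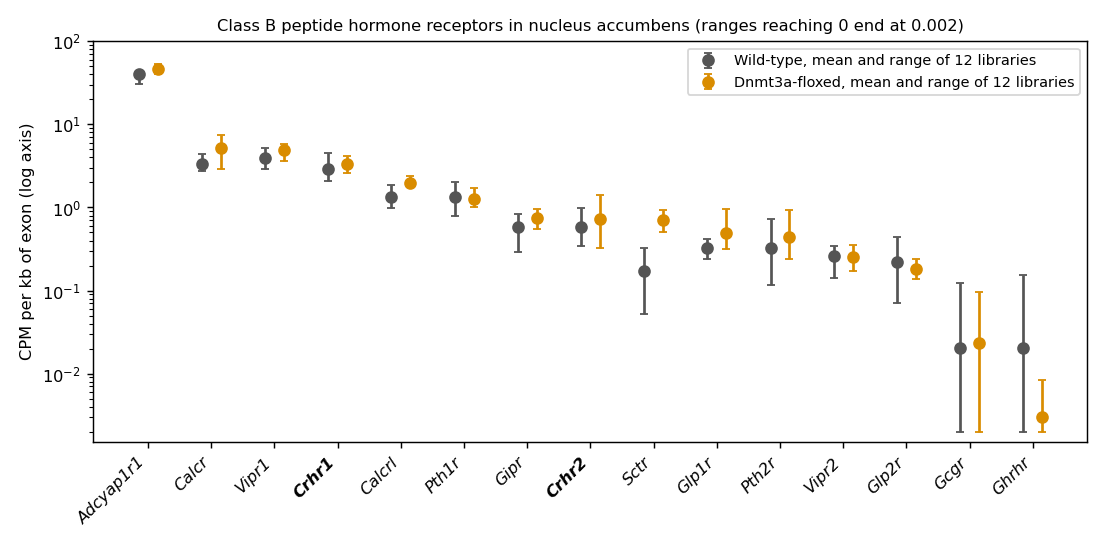
Level of 15 class B peptide receptor genes in CPM per kilobase of exon on a log axis, with floxed and wild-type libraries marked apart. Crhr1 lies 4th and Crhr2 8th of 15 by mean in both experiments.

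Downstream of the receptors, 28 genes of Gs and cyclic AMP signalling, its kinase, the CREB factors and receptor desensitisation were tested. Under stress 0 of 28 were called in either sex by edgeR, DESeq2 or limma-voom, and the medians were 0.0011 in females and 0.03 in males. Gnas, which encodes the Gs subunit that couples both CRH receptors to adenylyl cyclase, alone had an unadjusted p below 0.05 in males, with 54.9, 37.3 and 44.4 CPM in stressed males against 34.4, 33.2 and 34.6 CPM in control males. Its log2 difference was 0.42 (SE 0.18, unadjusted p = 0.0386, adjusted p = 1.00, edgeR quasi-likelihood test). In Cre against GFP males 1 of 28 rose and 1 fell by edgeR, where 4.96% of all genes were called, and the median was 0.0096 beside 0.0046 over all genes. At an unadjusted p below 0.05 by edgeR, 5 were higher and 2 lower beside 24.8% of all genes. DESeq2 called 4 higher and 2 lower, where it called 1811 of all 17597 genes. The gene that rose was Adcy1, a calcium-stimulated adenylyl cyclase of excitatory neurons, at 459, 388 and 297 CPM in Cre males against 209, 227 and 218 CPM in GFP males (log2 0.81, adjusted p = 0.00991 by the same test). The one that fell was Prkar2b, a regulatory subunit of protein kinase A, with a log2 difference of -0.44 (adjusted p = 0.0392 by the same test). Cre females had 0 of 28 called by each of the 3 tools and 1 at an unadjusted p below 0.05.

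Genes that process and store neuropeptides, 10 in all, had 0 called under stress in either sex by each tool and 0 at an unadjusted p below 0.05. In Cre males 2 of 10 rose by edgeR, where 3.68% of all genes were called higher, and the median was 0.18. DESeq2 called 4 higher and 1 lower, where it called 1811 of all 17597 genes. Pcsk1n, which encodes an inhibitor of the prohormone convertase PC1, had 81.4, 124 and 130 CPM in Cre males, against 44.6, 29.4 and 28.2 CPM in GFP males, with a log2 difference of 1.72 (SE 0.31, adjusted p = 0.0189, edgeR quasi-likelihood test). Chgb, a secretory granule protein gene, had a log2 difference of 0.39 (adjusted p = 0.0304 by the same test). In Cre females Pcsk1n had 107, 141 and 123 CPM, against 42.7, 53.7 and 94.0 CPM in GFP females. The female groups did not overlap either, but the log2 difference of 0.96 did not pass (SE 0.30, unadjusted p = 0.0106, adjusted p = 0.674 by the same test). For the average over the sexes 1 of the 10 genes was called higher by each of edgeR, DESeq2 and limma-voom. Of all genes edgeR called 1.42% in that comparison, and DESeq2 called 652 of 17597.

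Of 12 genes that act beside CRH in the stress hormone axis, 7 were tested under stress and 8 for Cre, and 0 were called under stress in either sex or in Cre females by each tool, with 0 at an unadjusted p below 0.05. The glucocorticoid receptor gene Nr3c1 differed by -0.03 between stressed and control females and by 0.02 between stressed and control males on the log2 scale (SE 0.19 each). In Cre males 2 of 8 rose by edgeR and by DESeq2 and 1 by limma-voom. Of all genes edgeR called 3.68% higher, and DESeq2 called 1811 of 17597 in either direction. Adcyap1, which encodes PACAP, had 4.51, 3.22 and 2.61 CPM in Cre males, against 0.204, 0.135 and 0.255 CPM in GFP males, a log2 difference of 4.07 (SE 0.38, adjusted p = 0.00192, edgeR quasi-likelihood test). Oxtr, the oxytocin receptor gene, had 13.2, 19.5 and 7.36 CPM in Cre males, against 3.74, 5.12 and 4.00 CPM in GFP males, a log2 difference of 1.64 (adjusted p = 0.0251 by the same test). Both rose in the libraries with the high cortical sums given above, and the part of that RNA was not tested for them.

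Interneuron markers are of interest because in the forebrain Crh and Crhbp are made in part by such cells. In Cre males 4 of 13 rose and none fell by edgeR, with a median log2 difference of 0.44, where 3.68% of all genes were called higher. DESeq2 called 6 higher, where it called 1811 of all 17597 genes in either direction. The cortical markers also differed between these groups, at 239 to 574 CPM in Cre males against 17.5 to 36.1 CPM in GFP males. Their part in the interneuron values was not tested. Sst, the somatostatin gene, had 126, 132 and 143 CPM in Cre males, against 90.6, 94.4 and 90.1 CPM in GFP males, a log2 difference of 0.54 (SE 0.07, adjusted p = 0.00388, edgeR quasi-likelihood test). The others were Cck, a peptide also made by cortical excitatory neurons, with a log2 difference of 3.99 (adjusted p = 0.00813 by the same test), Vip with 3.07 (adjusted p = 0.00923) and Npy with 0.44 (adjusted p = 0.0226). Under stress 0 of 13 were called in either sex by each tool, with medians of -0.04 in females and 0.09 in males, and 1 gene in each sex had an unadjusted p below 0.05. In males this was Pvalb, the parvalbumin gene, with a log2 difference of 0.88 (SE 0.39, unadjusted p = 0.0398, edgeR quasi-likelihood test). In Cre females 0 of 13 were called by each tool, and 4 had an unadjusted p below 0.05 by edgeR, 1 higher and 3 lower.

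The genes whose levels followed each member most closely were ranked among 12943 genes by the lower of 2 Pearson correlations of log2 CPM, over 12 wild-type and over 12 floxed libraries. These libraries share groups, depth and tissue mixture, so the values are a description. Nearest to Crh were Susd5 (0.73 in wild-type and 0.74 in floxed libraries), AI606473, Kcnc2, Tsc22d3 and Btbd11. Kcnc2 encodes a potassium channel of fast-spiking neurons, at 0.71 and 0.69, and Tsc22d3 encodes the glucocorticoid-induced leucine zipper protein, at 0.67 and 0.68. Nearest to Crhbp were Rai14 (0.82 and 0.93), Nr4a2 (0.78 and 0.90), Syt17, Homez and Ccnd1, of which Nr4a2 encodes a nuclear receptor expressed in deep cortical layers and claustrum. Nearest to Crhr1 were Gm21988 (0.84 and 0.90), AI837181, Dab2ip, Plekhm2 and Hcn2, and nearest to Crhr2 were Whrn (0.72 and 0.84), Slco3a1, Cfap206, Clmn and Tnr.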

How the data were processed

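Per the labels, RNA (integrity numbers above 8.0) of punched nucleus accumbens was made into Illumina mRNA libraries. Raw counts for each Ensembl gene were deposited by the authors. The submitters' processing notes name Bowtie2 2.1.0, TopHat2 2.0.9, HTSeq 0.6.0, NCBIM37 and mm9. Whether strand was used is not given in the sources used here. Symbols and exon lengths came from GENCODE M21, matched by ID for 32919 of 37991 genes. By that annotation no other gene overlaps a member.

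The counts were fitted with edgeR 4.0.16 in R 4.3.3 (filterByExpr, TMM, robust quasi-likelihood F test, 4 groups per experiment), over 15249 wild-type and 17597 floxed genes, with Benjamini-Hochberg adjustment over all genes tested and calls at adjusted p below 0.05. The SE is the log2 difference over the square root of F. DESeq2 1.42.0 and limma 3.58.1 (voom) were alternatives, beside other scaling, no filter, marker scores as covariates, a replicate block and leaving out each library.

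The members and gene lists were chosen with earlier results of these data known. Text names the members, the urocortins, Dnmt3a, called list genes and up to 4 list genes of smallest p, and the 5 genes most like each member with mean log2 CPM of at least 1. Other genes given for a marker list, such as Slc17a7, Zic1, Ttr, Otp, Nr3c1 and Adcyap1r1, were chosen after their values were seen. Libraries of equal number in stress and control females deviated together (correlations 0.566, 0.335 and 0.483). Of the other comparisons made within a sex, correlations did not all exceed 0.1 between stress and control males or between Cre and GFP in either sex. P-values measure the spread between libraries of pooled mice. Depth limits precision, with 16 to 115 counts per member in wild-type and 32 to 692 in floxed libraries.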

Additional observations from a re-analysis of the deposited data

How the results depend on the processing

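Over 40 member results, 312 of 341 settings kept direction and side of the threshold, 24 turned the direction of a value not called, 2 lost a call and 3 gained one. Leaving out 1 library did so in 439 of 480 fits, with 38 turned, 3 gained and 0 lost.

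DESeq2 called more genes than edgeR: 606 against 2 for the difference of the Cre effect between the sexes, 34 against 0 for Cre in females, 1811 against 872 in males and 652 against 249 averaged, 89 against 12 for sex in the floxed and 13 against 6 in the wild-type experiment, 12 against 2 for stress averaged over the sexes, 2 against 0 in females and 4 against 1 in males. The cause was not tested. For the difference of the stress effect between the sexes both called 0, with 182 genes at an unadjusted p below 0.05 by edgeR.

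Crhbp in Cre males fell to 1.44 (adjusted p = 0.121) with the choroid plexus score and to 0.37 with the cortical score, against 1.56. Its sex difference in the Cre effect was called by DESeq2 (-1.70) and its averaged Cre effect by DESeq2 (0.70) and without a filter (0.71, adjusted p = 0.0495). Without 1 library the sex difference ran from -2.07 to -1.49, called without Cre female 3 or without Cre male 3, and the averaged effect from 0.52 to 0.81, called without Cre female 2.

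Turned directions with the cortical score were, for Crh, 0.34 (sex difference of Cre), -0.91 (Cre males) and -0.14 (wild-type sex); for Crhbp -0.026 (wild-type sex), 0.011 (sex difference of stress), 0.10 (stress averaged) and 0.10 (stress females); for Crhr2 -0.34 (floxed sex), 0.10 (wild-type sex) and -0.048 (stress females). With the choroid plexus score they were -0.46 for Crh in Cre males, and for Crhr2 0.56 (sex difference of Cre), -0.59 (Cre males), -0.31 (Cre averaged) and 0.15 (wild-type sex). The septal and hypothalamic score, chosen after seeing the data, gave Crhr2 0.81 (sex difference of Cre), 0.24 (Cre females), -0.57 (Cre males, adjusted p = 0.199), -0.17 (Cre averaged) and -0.042 (floxed sex). For Crhr2, limma-voom gave -0.0054 (Cre averaged) and 0.036 (wild-type sex), the replicate block -0.0064 (Cre averaged), and upper-quartile scaling 0.0018 (wild-type sex). The causes were not tested.

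Without 1 library, Crh ran from -0.15 to 0.65 in Cre males, -0.37 to 0.030 for Cre averaged and -0.071 to 0.12 for wild-type sex. Crhbp ran from -0.52 to 0.071 in Cre females, -0.19 to 0.0049 for stress averaged and -0.072 to 0.19 for stress in males. Crhr1 ran from -0.14 to 0.083 in Cre females, -0.45 to 0.12 for the sex difference of stress, -0.22 to 0.065 for stress averaged, -0.30 to 0.049 for stress in females and -0.29 to 0.28 for stress in males. Crhr2 ran from -0.86 to 0.40 for the sex difference of Cre, -0.68 to 0.57 in Cre females, -0.23 to 0.45 in Cre males, -0.25 to 0.37 for Cre averaged, -0.17 to 0.11 for wild-type sex and -0.0081 to 0.36 for stress in females.

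The replicate block changed no call of a member: Crh under stress was 0.54 in females (adjusted p = 0.998), 0.97 in males (adjusted p = 0.895) and 0.76 averaged (adjusted p = 0.332), and Crhbp in Cre males was 1.56 (adjusted p = 0.0252). Depth and precision did not go together for Crhr2: its SE was 0.37 in females and 0.36 in males at 16 to 53 counts in wild-type libraries, and 0.55 and 0.56 at 68 to 312 counts in floxed libraries.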
